A study of Homo sapiens with 3 samples.

Results

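The let-7 family and its close relative miR-98 were followed through their 5p arms, the strands that are normally kept and used for silencing. The members were chosen by name and were all 9 listed 5p arms: 8 of let-7 and miR-98-5p, out of 2588 mature miRNAs listed for each library. The cells were SK-MEL-2, an established human melanoma line, either untreated (control) or treated for 3 min or 5 min with a plasma jet, in which ionised gas is directed at the culture. All cells were grown in RPMI-1640 with 10% FBS and antibiotics, and RNA was taken on Day 2. There was 1 library per group, from 1 cell line, so no difference below has a replicate check, no p-value is given, and each ratio compares libraries rather than conditions.

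The let-7 miRNAs were found as developmental timing regulators and are abundant in most differentiated human tissues. The 5p strand, loaded into an Argonaute protein, pairs through its seed (bases 2 to 8) with target mRNAs such as those of the RAS family, HMGA2, MYC and LIN28, and lowers their output. LIN28 proteins in turn bind let-7 precursors and block their maturation, and the family is usually described as restraining proliferation. Those mRNAs and proteins were not measured here.

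The mature sequences are shown because every comparison among members turns on a few bases. They are from RefSeq on GRCh38.p14, all 9 members matched, and the capitals mark the seed, which was the same in all 9.
hsa-let-7a-5p: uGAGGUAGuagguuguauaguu
hsa-let-7b-5p: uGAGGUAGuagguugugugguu
hsa-let-7c-5p: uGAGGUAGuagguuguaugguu
hsa-let-7d-5p: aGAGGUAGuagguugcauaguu
hsa-let-7e-5p: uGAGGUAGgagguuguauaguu
hsa-let-7f-5p: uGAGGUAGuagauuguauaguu
hsa-let-7g-5p: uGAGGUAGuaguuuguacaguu
hsa-let-7i-5p: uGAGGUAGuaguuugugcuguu
hsa-miR-98-5p: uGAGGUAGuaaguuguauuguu

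All 9 were 22 bases long. Counting positions from 1 at the 5′ end, let-7c-5p differed from let-7a-5p by A19G, let-7e-5p by U9G and let-7f-5p by G12A. let-7b-5p carried A17G and A19G, let-7d-5p U1A and U16C, let-7g-5p G12U and U18C, and miR-98-5p G11A and A19U. let-7i-5p was the most distant, with G12U, A17G, U18C and A19U. Steps of 1 base therefore link let-7a-5p, let-7b-5p, let-7c-5p, let-7e-5p and let-7f-5p. A read with a sequencing error or an end variant can match more than 1 of these 5, and how such reads were assigned is not given in the sources used here, so the separate values of these 5 are uncertain while their sum is less so.

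The members came from 12 hairpins on 8 chromosomes. let-7a-5p alone has 3 (MIRLET7A1, MIRLET7A2, MIRLET7A3) and let-7f-5p 2 (MIRLET7F1, MIRLET7F2), so their counts cannot be tied to a locus. MIRLET7A1 (chromosome 9, 94175957 to 94176036), MIRLET7F1 (94176347 to 94176433) and MIRLET7D (94178834 to 94178920) lie together in an intron of an annotated transcript on their strand. MIRLET7A3 (chromosome 22, 46112749 to 46112822) and MIRLET7B (46113686 to 46113768) overlap exons of MIRLET7BHG. MIR98 (chromosome X, 53556223 to 53556341) and MIRLET7F2 (53557192 to 53557274) share an intron of HUWE1. MIRLET7C (chromosome 21, 16539828 to 16539911) is in an intron of MIR99AHG, MIRLET7E (chromosome 19, 51692786 to 51692864) in an intron of SPACA6 and MIRLET7A2 (chromosome 11, 122146522 to 122146593) in an intron of MIR100HG. MIRLET7G (chromosome 3, 52268278 to 52268361) is in an intron of WDR82, and MIRLET7I (chromosome 12, 62603686 to 62603769) in an intron of an annotated transcript. Host genes are those of GENCODE 29.

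The control library held 1045482 counts, the 3 min library 966943 and the 5 min library 615645. All 9 members passed the filter of a mean of at least 20 counts, as 231 miRNAs did, and all 9 were among the 58 with a mean of at least 1000. Of 6 melanocyte and melanoma markers, 3 had counts, with unscaled sums of 4055, 4074 and 2461 in control, 3 min and 5 min. Most were miR-204-5p (2608, 2535 and 1257) and miR-146a-5p (1319, 1442 and 1139), while miR-211-5p had 128, 97 and 65. The other 3 (miR-508-3p, miR-509-3p, miR-514a-3p) were at 0. The sums of 7 epithelial markers were 16, 29 and 44 counts and those of 8 blood markers 18, 22 and 16, against 150014 or more for the let-7 family in each library. miR-205-5p of the epithelial list and miR-223-3p of the blood list were at 0.

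Between 24.4% and 25.9% of all miRNA reads were let-7 or miR-98 5p arms. The 9 members summed to 270402 counts (control), 242419 (3 min) and 150014 (5 min). These were 25.9% (exact 95% interval 25.8 to 25.9), 25.1% (24.98 to 25.2) and 24.4% (24.3 to 24.5) of the library. The share was lowest in the 5 min library. Apart from those for changes of ratios between members, the intervals here and below are Clopper-Pearson. All of them cover counting error only. They also treat reads as independent, which PCR copies are not.

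Levels are given as a percent of library counts. All members have the same length, but adapter ligation favours some RNA ends, so levels of different members are not molar amounts. hsa-let-7i-5p had 111578 control counts, 97520 at 3 min and 58432 at 5 min, which were 10.7%, 10.1% and 9.49% of the library. It ranked behind only 1 other miRNA in each of the 3 libraries, and its share was highest in the control and lowest after 5 min. hsa-let-7f-5p had 66871, 58940 and 41156 counts, or 6.40%, 6.10% and 6.69%, so that its highest share was in the 5 min library. hsa-let-7g-5p had 27537, 26772 and 16955 counts, or 2.63%, 2.77% and 2.75%, higher in both plasma libraries than in the control.

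hsa-let-7c-5p had, in the same order, 23690, 20021 and 11455 counts, or 2.27%, 2.07% and 1.86%. hsa-let-7a-5p had 19203, 18447 and 10451 counts, or 1.84%, 1.91% and 1.70%. let-7c-5p stepped down over the 3 libraries, while let-7a-5p was highest after 3 min. hsa-let-7b-5p had 10782, 9964 and 5314 counts, or 1.03%, 1.03% and 0.863%, and only the 5 min library was low. hsa-let-7d-5p had 5963, 6406 and 3762 counts, or 0.570%, 0.663% and 0.611%, lowest in the control. The scarcest members were hsa-miR-98-5p, with 2472, 2341 and 1363 counts, and hsa-let-7e-5p, with 2306, 2008 and 1126. These were 0.236%, 0.242% and 0.221% of the library for miR-98-5p and 0.221%, 0.208% and 0.183% for let-7e-5p.

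**Figure D1:**
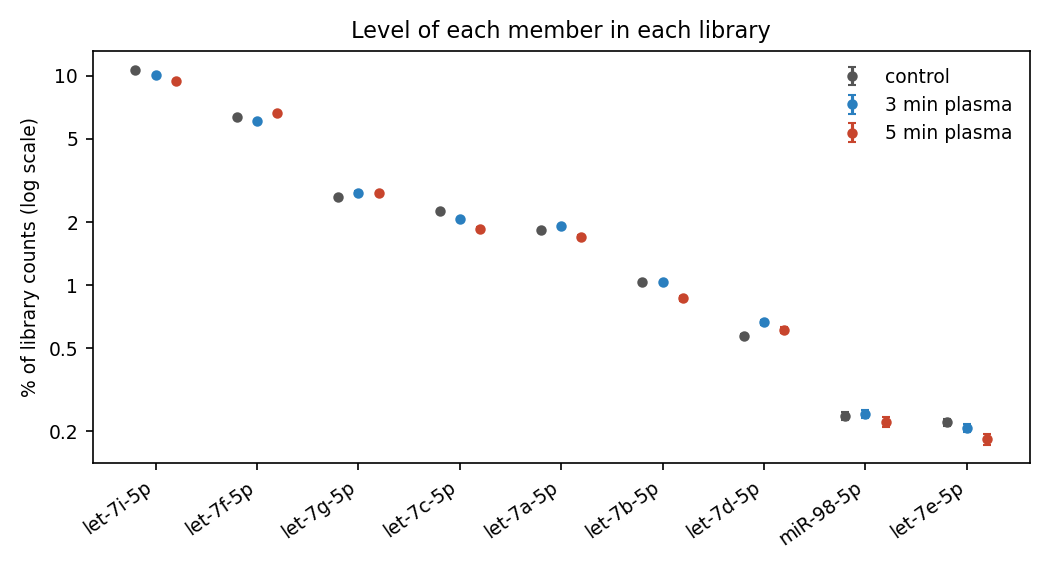
Percent of library counts (vertical axis, log scale) of each of the 9 members in the control, 3 min and 5 min libraries, with exact 95% counting intervals that are mostly smaller than the points. The 9 members keep the same order in all 3 libraries, from let-7i-5p near 10% to let-7e-5p near 0.2%.

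The order of the members by counts was the same in all 3 libraries: let-7i-5p, let-7f-5p, let-7g-5p, let-7c-5p, let-7a-5p, let-7b-5p, let-7d-5p, miR-98-5p and let-7e-5p. Every neighbouring pair in that order was apart by more than counting error within each library. The closest pairs were miR-98-5p over let-7e-5p in the control, with a ratio of 1.07 (1.01 to 1.14), and let-7c-5p over let-7a-5p after 3 min, with 1.09 (1.06 to 1.11). The spread between replicate libraries is unknown, and a difference of that size may lie within it.

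Between libraries, counts were scaled with TMM factors of 0.991 for the 3 min and 1.009 for the 5 min library, that of the control differing from 1 by less than 0.001, and the log2 ratio of scaled counts was taken. At 3 min against control, the summed family had a log2 ratio of -0.032 (-0.040 to -0.024), or 1.02-fold lower. No member was 1.5-fold from control, where 12.1% of the 231 miRNAs and 0% of the 58 abundant ones were. None was 1.2-fold from control in either direction, where 35.9% of the 231 and 19.0% of the 58 were. The 9 members had a median log2 ratio of 0.012, beside 0.050 over the 231 and 0.024 over the 58.

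let-7d-5p, from the chromosome 9 cluster, stood farthest above control at 3 min, with a ratio of 1.17 (1.13 to 1.21), a log2 ratio of 0.23 that was positive in all 8 distinct scalings tried. let-7g-5p was 1.06 times control (1.04 to 1.08), also positive in all 8 scalings. let-7a-5p was 1.05 times control (1.03 to 1.07), with 1 of the 8 scalings giving a negative sign. On the lower side, let-7c-5p stood 1.08-fold below control (1.06 to 1.10), let-7i-5p 1.05-fold (1.04 to 1.06) and let-7f-5p 1.04-fold (1.03 to 1.05), each lower in all 8 scalings. The intervals of let-7b-5p, let-7e-5p and miR-98-5p included a ratio of 1.

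At 5 min against control, the summed family was 1.07-fold lower (1.06 to 1.08), a log2 ratio of -0.097. Again no member was 1.5-fold from control, a size reached by 29.0% of the 231 miRNAs and 12.1% of the 58 abundant ones. At the smaller fold of 1.2, 3 of the 9 members were lower, or 33.3% of them. That share was 26.0% over the 231 and 32.8% over the 58, so the members' count was near that of the abundant set, which includes the 9 members. No member was 1.2-fold higher, against 31.6% of the 231 and 19.0% of the 58. The members' median log2 ratio was -0.12, beside 0.046 over the 231 and -0.11 over the 58.

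The 3 members at least 1.2-fold lower after 5 min were let-7c-5p at 1.23-fold (log2 ratio -0.30, interval -0.33 to -0.26), let-7e-5p at 1.22-fold (1.13 to 1.31) and let-7b-5p at 1.204-fold (1.17 to 1.24). let-7i-5p was 1.13-fold lower (1.12 to 1.14), let-7a-5p 1.09-fold (1.06 to 1.12) and miR-98-5p 1.08-fold (1.01 to 1.15). These 6 were lower in all 8 scalings. By library total, or with the filter at a mean of 100 counts, let-7b-5p was short of 1.2-fold and the count was 2. let-7d-5p, let-7g-5p and let-7f-5p had ratios of 1.06 (1.02 to 1.11), 1.04 (1.02 to 1.06) and 1.04 (1.02 to 1.05), and 2 of the 8 scalings put each of them below control. In both of those scalings all 9 members were lower and 6 of them at least 1.2-fold, while the 231 miRNAs moved as well, from 60 lower and 73 higher at 1.2-fold to 90 and 54 (TMM over all listed miRNAs, which is the same as no filter) or 95 and 51 (DESeq2 size factors over all listed miRNAs). Other scalings shifted the median log2 ratio of the 231 by as much as -0.21 after 5 min. The distance of the summed family from that median was -0.14 whichever scaling was used, and 0.013 from the median of the 58 abundant miRNAs.

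At 5 min against 3 min, the control library entered only through the scaling and the filter. The summed family was 1.05-fold lower after 5 min (1.04 to 1.05), and 8 of the 9 members were lower, where 111 of the 231 miRNAs and 37 of the 58 abundant ones were. No member was 1.5-fold apart, against 21.6% of the 231 miRNAs and 6.90% of the 58. let-7b-5p was the 1 member at least 1.2-fold lower, at 1.21-fold (1.17 to 1.26), where 22.9% of the 231 and 24.1% of the 58 were. That count was 0 by library total or with the filter at 100. It was 5 by TMM and 6 by DESeq2 size factors, each over all listed miRNAs. The wider sets moved with the scaling too. By library total, 21.6% of the 231 and 20.7% of the 58 were that much lower. With the filter at 100 these shares were 20.8% and 19.0%. They were 35.1% and 39.7% by TMM over all listed miRNAs, and 37.2% and 44.8% by DESeq2 size factors over all listed miRNAs. let-7f-5p was higher, at 1.08 times the 3 min level (1.06 to 1.09), although 2 of the 8 scalings gave it a negative sign. let-7g-5p had a log2 ratio of -0.032 (-0.060 to -0.0045), with 1 scaling giving the opposite sign.

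**Figure D2:**
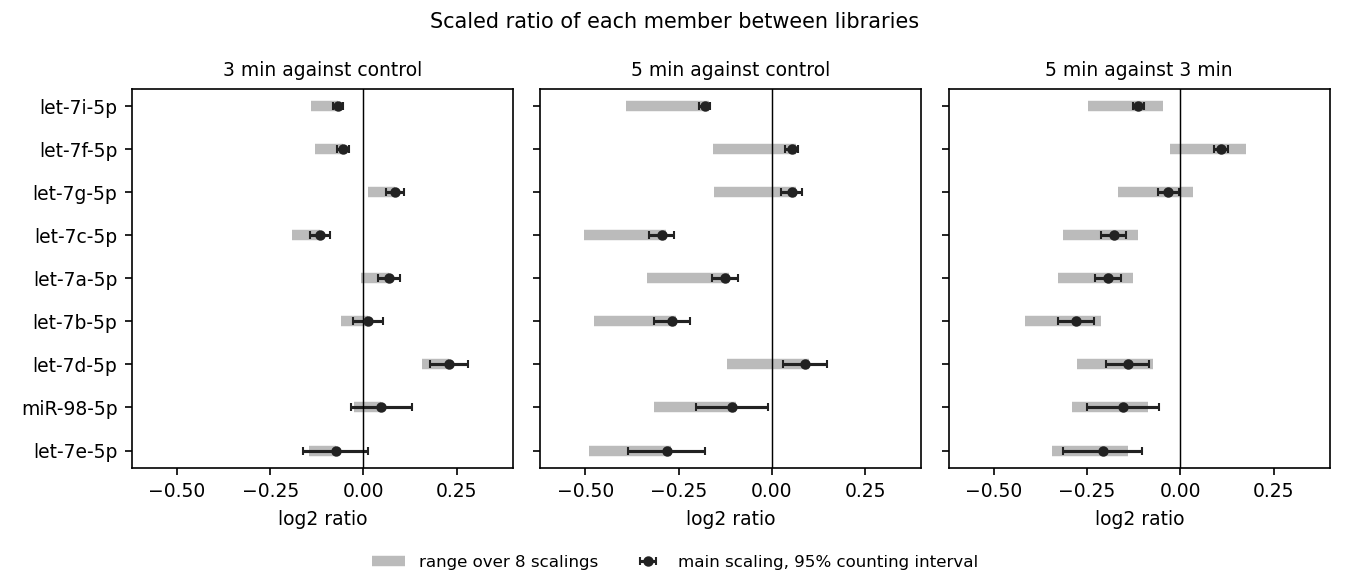
Log2 ratio of scaled counts (horizontal axis) of each member in the 3 comparisons, with points and bars for the main scaling and its exact 95% counting interval and grey bands for the range over 8 scalings. After 5 min, let-7c-5p, let-7e-5p and let-7b-5p sit farthest left, and the bands of let-7d-5p, let-7f-5p and let-7g-5p cross 0.

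The makeup of the family was compared within each library, where no scaling enters. let-7i-5p made up 41.3% of the members' counts in the control library (exact 95% interval 41.1 to 41.4), 40.2% at 3 min (40.03 to 40.4) and 38.95% at 5 min (38.7 to 39.2). let-7f-5p made up 24.7% (24.6 to 24.9), 24.3% (24.1 to 24.5) and 27.4% (27.2 to 27.7), 2.70 percentage points higher at 5 min than in the control. let-7g-5p held 10.2%, 11.0% and 11.3%, and let-7c-5p 8.76%, 8.26% and 7.64%. The weight of let-7f-5p and let-7g-5p was thus higher in the 5 min library, and that of let-7i-5p and let-7c-5p lower.

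Of the smaller members, let-7a-5p held 7.10%, 7.61% and 6.97%, in the same order. let-7b-5p held 3.99%, 4.11% and 3.54%, and let-7d-5p 2.21%, 2.64% and 2.51%. miR-98-5p held 0.914%, 0.966% and 0.909%, and let-7e-5p 0.853%, 0.828% and 0.751%. miR-98-5p kept its weight within counting error between control and 5 min, while let-7d-5p held more in both plasma libraries.

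**Figure D3:**
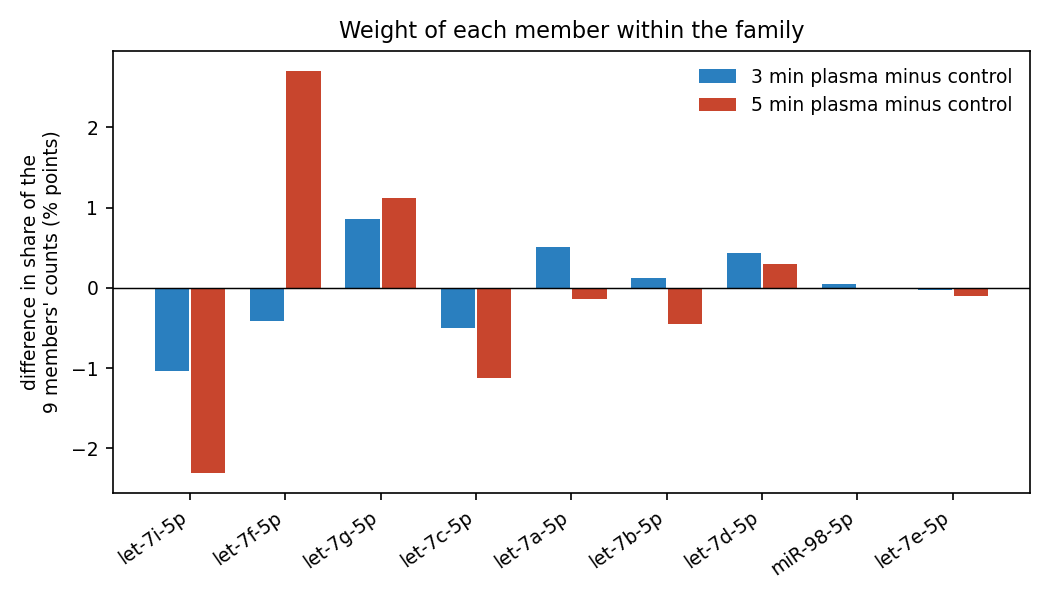
Difference from control in each member's share of the 9 members' counts (vertical axis, percentage points) for the 3 min and 5 min libraries; bars start at 0 and there are no replicates. After 5 min the difference is 2.70 points for let-7f-5p and -2.31 points for let-7i-5p, and these are the tallest bars.

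Ratios between members gave the same view for all 36 pairs. let-7c-5p stood at 3.97 times let-7d-5p in the control, 3.13 times after 3 min and 3.04 times after 5 min. From control to 5 min this ratio was multiplied by 0.766 (95% counting interval 0.732 to 0.803, on the log scale), the farthest from 1 of the 36. let-7d-5p to let-7e-5p went from 2.59 through 3.19 to 3.34, a factor of 1.29 (1.19 to 1.40). Other pairs held nearly the same ratio in the control and after 5 min. let-7f-5p to let-7g-5p was 2.43, 2.20 and 2.43, a factor of 0.9996 (0.977 to 1.02). let-7c-5p to let-7e-5p was 10.3, 9.97 and 10.2, a factor of 0.990 (0.919 to 1.07). let-7b-5p to let-7e-5p was 4.68, 4.96 and 4.72, a factor of 1.01 (0.933 to 1.09). After 5 min, let-7b-5p, let-7c-5p and let-7e-5p thus lay together at the low end, and let-7d-5p, let-7f-5p and let-7g-5p at the high end, a grouping seen after their values were known.

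The low and high ends both held members of the set linked by 1-base steps: let-7b-5p, let-7c-5p and let-7e-5p were low and let-7f-5p high. Joined into 1 sum, the 5 linked members had 122852, 109380 and 69502 counts. It stood below control by 1.03-fold at 3 min (1.02 to 1.04) and by 1.05-fold at 5 min (1.04 to 1.06). The sum lay nearer to control than let-7c-5p, let-7b-5p and let-7e-5p did after 5 min. Of its counts, let-7f-5p alone supplied 66871, 58940 and 41156, and a sum must lie between its highest and lowest parts. This nearness therefore follows from the member values and does not show how reads were assigned. Whether reads moved between these names was not tested. let-7d-5p, let-7g-5p, let-7i-5p and miR-98-5p each differ from every other member by at least 2 bases.

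Base composition was a further feature that the choice of members did not use. let-7f-5p and miR-98-5p hold 7 G or C bases, let-7a-5p and let-7g-5p 8, let-7c-5p, let-7d-5p, let-7e-5p and let-7i-5p 9, and let-7b-5p 10. Across the 9 members, percent GC and the 5 min log2 ratio had a Pearson r of -0.55 and a Spearman rho of -0.51. Across 47 of the 49 other abundant miRNAs, those with a RefSeq sequence, these were -0.33 and -0.31. Across 206 of the 231 miRNAs they were 0.11 and -0.089, opposite in sign to each other. At 3 min the members had -0.061 and -0.26. All points share the same libraries and the members share most of their bases, so these values describe the libraries and are not a test. let-7d-5p, with 9, stood higher than the other members of that count at both exposures.

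Hairpins that lie together are often cut from the same primary transcript, so members with listed neighbours were set beside them. MIRLET7G and MIRLET7I had none, so let-7g-5p and let-7i-5p, the largest member, were left out. In the MIR99AHG cluster, let-7c-5p and miR-99a-5p, whose hairpins are 658 bases apart, were both lower after 5 min, with log2 ratios of -0.30 (-0.33 to -0.26) and -0.34 (-0.36 to -0.31). miR-99a-5p had 34423, 28063 and 16196 counts, stepping down over the libraries as let-7c-5p did, and both were below control in all 8 scalings at both exposures. miR-125b-5p, the other listed neighbour of let-7c-5p, pools reads of MIR125B1 and MIR125B2, and MIR125B2 was not placed here. Its log2 ratio was 0.032 after 3 min, positive in 4 of 8 scalings. After 5 min it was -0.11, negative in all 8.

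In the SPACA6 intron, let-7e-5p lies between a neighbour that was lower and one that was higher. MIR99B is 104 bases upstream of MIRLET7E, and miR-99b-5p had 6129, 5199 and 2437 counts. Its 5 min log2 ratio was -0.58 (-0.65 to -0.51), or 1.49-fold lower. MIR125A is 389 bases downstream, and miR-125a-5p had 7569, 9076 and 5513 counts, with a 5 min log2 ratio of 0.30 (0.25 to 0.35). let-7e-5p lay between them at -0.28 (-0.39 to -0.18). The order of these 3 does not depend on scaling, and each kept its sign in all 8 scalings at both exposures.

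Of the other clusters, 2 were mixed in sign at 5 min and 2 were not. On chromosome 9, let-7d-5p had a 5 min log2 ratio of 0.088 (0.029 to 0.15) and let-7f-5p 0.052 (0.035 to 0.070), against -0.12 (-0.16 to -0.091) for let-7a-5p, the signs of the first pair depending on scaling. On chromosome X, miR-98-5p stood at -0.11 (-0.20 to -0.010), beside the same let-7f-5p. On chromosome 22, let-7b-5p stood at -0.27 (-0.32 to -0.22), and let-7a-5p was lower too. The MIR100HG cluster is wider than the others, with 5635 bases between MIRLET7A2 and MIR100 and 46677 between MIR125B1 and MIRLET7A2. There, miR-100-5p had 6008, 5226 and 3048 counts and a 5 min log2 ratio of -0.23 (-0.29 to -0.16). miR-125b-5p, from MIR125B1 in this cluster and from MIR125B2, had 43083, 40361 and 23750 counts and a log2 ratio of -0.11 (-0.13 to -0.084). With let-7a-5p, all 3 miRNAs of the MIR100HG cluster were below control in all 8 scalings, as were let-7a-5p and let-7b-5p of chromosome 22. let-7a-5p and let-7f-5p pool reads of several hairpins. Only let-7c-5p with miR-99a-5p, and let-7e-5p with miR-99b-5p and miR-125a-5p, compare names of 1 cluster that each have 1 hairpin here. Their reads may still include those of near variants from other loci, since let-7c-5p and let-7e-5p are each 1 base from let-7a-5p. Of the 5 neighbours, 4 were below control after 5 min, where 103 of the 231 miRNAs and 35 of the 58 abundant ones were.

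**Figure D4:**
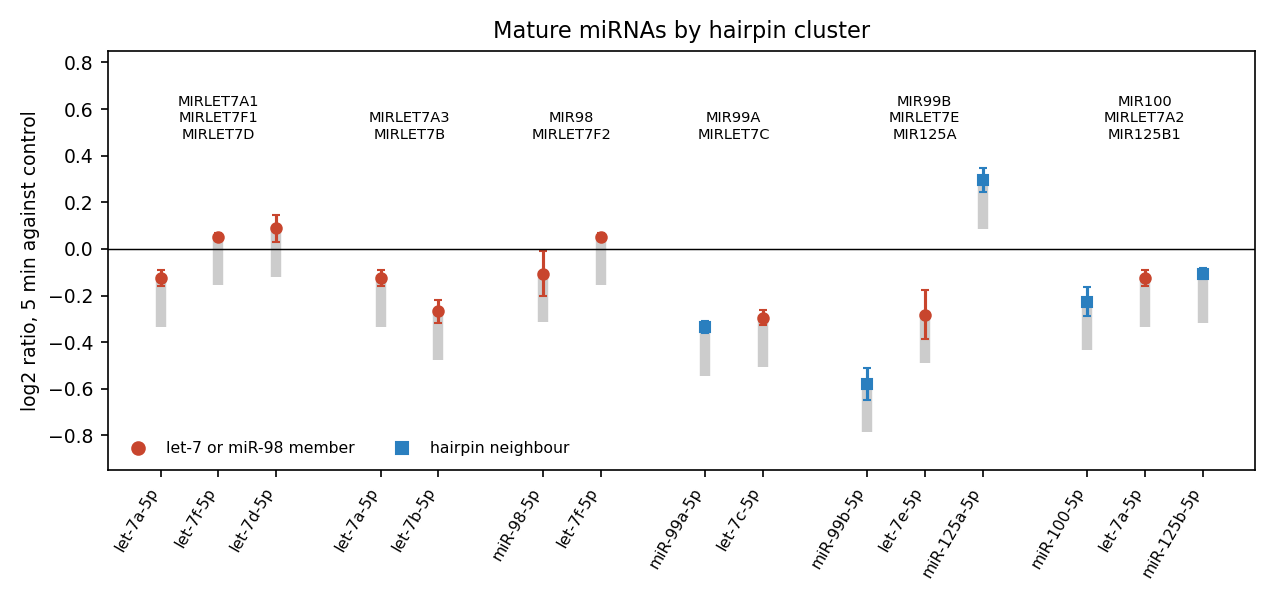
Log2 ratio of 5 min plasma against control (vertical axis) for members (red circles) and neighbours (blue squares), grouped by the hairpins that lie together, with exact 95% counting intervals and grey bands for the range over 8 scalings. let-7e-5p lies between miR-99b-5p at -0.58 and miR-125a-5p at 0.30, while let-7c-5p and miR-99a-5p sit side by side. miR-125b-5p, also a listed neighbour of let-7c-5p, is drawn only with MIR100 and MIRLET7A2, from which MIR125B1 lies 52384 and 46677 bases away. let-7g-5p and let-7i-5p have no listed neighbour and are not drawn.

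Each hairpin also yields a 3p arm, usually the strand that is discarded, and the balance of arms differed among members far more than among libraries. A hairpin with a very low and the one with the highest 3p share are shown, with both mature arms in capitals (RefSeq, GRCh38.p14).
MIRLET7I: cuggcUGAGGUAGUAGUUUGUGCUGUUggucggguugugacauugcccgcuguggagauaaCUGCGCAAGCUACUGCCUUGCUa
MIRLET7D: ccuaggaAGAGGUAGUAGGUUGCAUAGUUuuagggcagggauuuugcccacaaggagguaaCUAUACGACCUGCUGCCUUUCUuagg

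let-7d-3p had 470 control counts, 561 at 3 min and 253 at 5 min. It made up 7.31% of the let-7d counts (exact 95% interval 6.68 to 7.97), 8.05% (7.42 to 8.72) and 6.30% (5.57 to 7.10), the highest 3p share of the family. let-7i-3p had 33, 20 and 14 counts, or 0.0296% (0.0204 to 0.0415), 0.0205% (0.0125 to 0.0317) and 0.0240% (0.0131 to 0.0402) of the let-7i counts. let-7g-3p was scarcer still, with 2 counts in the control and 0 in both plasma libraries, where 3 counts would be 0.0112% and 0.0177% of the let-7g counts.

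let-7a-3p and let-7b-3p were further below control than their 5p arms. let-7a-3p had 663, 468 and 208 counts, 1.89-fold lower after 5 min (1.62 to 2.22), beside 1.09-fold for let-7a-5p. The 3p share of let-7a, with let-7a-2-3p included, stepped down from 3.34% (3.10 to 3.602) through 2.49% (2.27 to 2.72) to 1.97% (1.71 to 2.25). let-7b-3p had 196, 122 and 64 counts, 1.82-fold lower after 5 min (1.36 to 2.45), beside 1.204-fold for let-7b-5p. Its share went from 1.79% (1.55 to 2.05) to 1.21% (1.01 to 1.44) and 1.19% (0.918 to 1.52). A share within a hairpin name needs no scaling, and both intervals of the 5 min library lay below those of the control.

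The other 3p arms past the filter had few counts, and their intervals after 5 min all included a ratio of 1: let-7c-3p with 24, 21 and 21 counts, let-7e-3p with 33, 34 and 16, let-7f-1-3p with 85, 55 and 52, and let-7f-2-3p with 32, 30 and 22. The 5 min interval also included 1 for let-7i-3p and for let-7d-3p, which had more counts. At 3 min let-7d-3p was 1.30 times control (1.15 to 1.48), and at 5 min it was 0.696 times its 3 min level (0.598 to 0.809). The 11 3p arms summed to 1566, 1335 and 662 counts, which was 0.576%, 0.548% and 0.439% of all 5p and 3p counts.

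**Figure D5:**
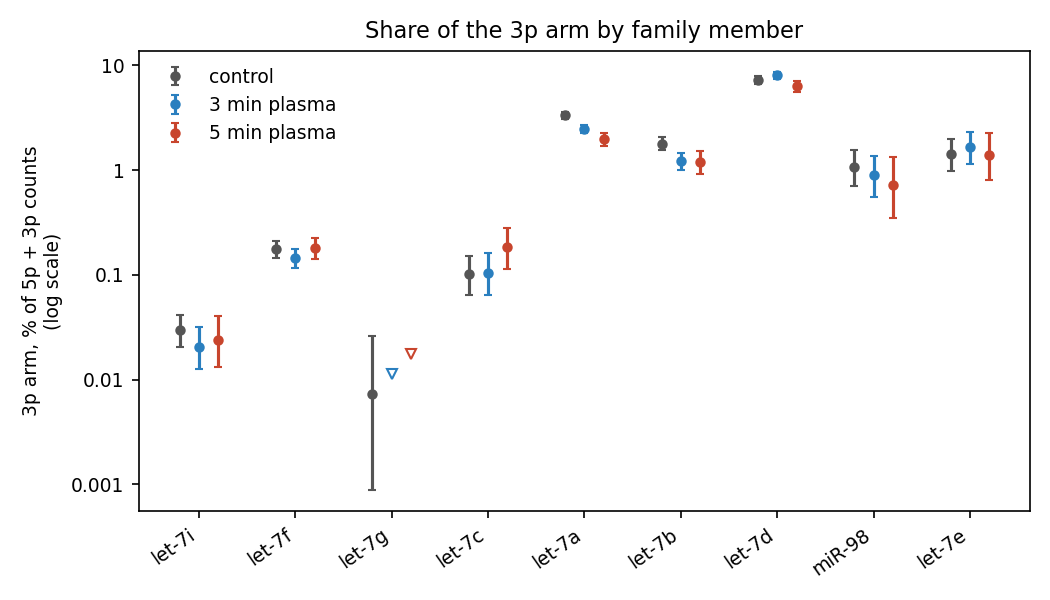
Share of the 3p arm in the 5p plus 3p counts of each family member (vertical axis, percent, log scale) in the 3 libraries, with exact 95% counting intervals; open triangles mark what 3 counts would be where none was counted. The share runs from about 7% for let-7d to under 0.1% for let-7i and let-7g, and that of let-7a is lower in each plasma library than in the control.

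Outside the members, 2 listed human miRNAs with a RefSeq sequence carry the same seed in a different body. They are shown because they would join the family by seed alone.
hsa-miR-4500: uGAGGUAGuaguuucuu
hsa-miR-4458: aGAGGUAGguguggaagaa

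miR-4500 had 7, 7 and 2 counts, and miR-4458 had 0 in all 3 libraries, where the floor of 3 counts is 2.87, 3.10 and 4.87 CPM (counts scaled by library total). Among miRNAs with a RefSeq sequence, counts with this seed were thus nearly all from the 9 members. Of the 231 filtered miRNAs, 206 had such a sequence, and the rest were not searched.

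The abundant miRNAs whose pair of log2 ratios lay nearest to those of the summed family were named by the distance between the pairs, over 49 non-members and 3 libraries. These were miR-148b-3p at a distance of 0.057, miR-25-3p at 0.057, miR-26a-5p at 0.059, miR-125b-5p at 0.064 and miR-149-5p at 0.092, beside a median of 0.33 over the 49. miR-148b-3p had log2 ratios of -0.037 after 3 min and -0.041 after 5 min, and miR-25-3p -0.033 and -0.15. For miR-26a-5p they were 0.025 and -0.11, and for miR-149-5p -0.029 and -0.19. Both exposures share the control library, so this likeness is a description of these libraries.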

How the data were processed

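Small RNA of SK-MEL-2 cells was sequenced as 1 library per group. The deposited tables give raw read counts, 1 value for each mature miRNA. Per the labels' protocols, Trizol RNA went into a NEBNext small-RNA kit. The submitters' processing notes name Bowtie2, edgeR and bedtools. For versions, roles, genome build, miRNA annotation, trimming, strand and reads matching several miRNAs, the handling was not given in the sources used here.

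Those miRNAs whose mean count reached 20 were scaled with TMM (edgeR 4.0.16, R 4.3.3). Ratios carry exact binomial (Clopper-Pearson) 95% intervals, changes of ratios between members log-scale intervals from the counts. Alternatives were 8 other scalings or filters (DESeq2 1.42.0 for size factors), of which TMM over all listed miRNAs and no filter coincide, leaving 8 distinct scalings with the main one, sums without let-7i-5p, and joining members 1 base apart. The interval step was tested on simulated counts that held counting error only and were scaled by library total. That test could not show whether the intervals hold with PCR copies or spread between libraries. Python 3.11.15, scipy 1.17.1 and matplotlib 3.10.9 were used.

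The members and lists, and the folds of 1.5 and 1.2, were chosen with earlier results of these data known. Named were all members, their hairpin neighbours, seed-sharing miRNAs, 3p arms with a mean of at least 20 counts and the 5 nearest patterns; let-7g-3p, below that filter, was named after its values were seen.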

Additional observations from a re-analysis of the deposited data

Results flagged for a closer look

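Members whose counting intervals lay on opposite sides of control at the 2 plasma exposures were let-7a-5p and let-7f-5p. let-7a-5p had a log2 ratio of 0.068 after 3 min and -0.12 after 5 min, and let-7f-5p had -0.056 after 3 min and 0.052 after 5 min. The difference between exposures was not tested, each exposure being 1 library set against the same control. The 3 min sign of let-7a-5p was negative in 1 of 8 scalings, and the 5 min sign of let-7f-5p in 2 of 8.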

How the results depend on the processing

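The ratio of the summed family to control at 3 min, 0.978 in the main scaling, was 0.969 by library total, 0.959 by the total without the 9 members, 0.965 by the total without the 10 most abundant miRNAs, 0.940 by TMM over all listed miRNAs or with no filter, 0.956 and 0.930 by DESeq2 size factors over the filtered and over all listed miRNAs, 0.939 with a filter at a mean of 100 counts and 0.996 without let-7i-5p. At 5 min, 0.935 in the main scaling, it was, for these settings in that order, 0.942, 0.923, 0.924, 0.831, 0.914, 0.809, 0.939 and 0.972. For 5 min against 3 min, 0.955, it was 0.972, 0.963, 0.957, 0.884, 0.956, 0.870, 1.001 and 0.976; that of 1.001, with the filter at 100, was the 1 value on the other side of 1. Members at least 1.2-fold lower after 5 min numbered 3, or 2 by library total and with the filter at 100. They numbered 6 by TMM over all listed miRNAs, 6 with no filter and 6 by DESeq2 size factors over all listed miRNAs. In the main scaling 26.0% of the 231 miRNAs and 32.8% of the 58 abundant ones were that much lower. These shares were 39.0% and 53.4% by TMM over all listed miRNAs, and 41.1% and 55.2% by DESeq2 size factors over all listed miRNAs. At 1.5-fold there were 0 members at either exposure in all 8 distinct scalings. Joining the 5 members linked by 1-base steps put the joined value outside the counting interval of 26 of 30 member ratios and family shares. The ratios and shares come from the same counts, and the interval set around a share had the log2 width of that of the ratio. Each share check thus repeats the check of the ratio. Each joined value was also set against all 5 members, which differ among themselves. The count therefore does not show how reads were assigned. No paired analysis was possible because each group was 1 library. Depth limited the 3p arms, with 0 to 663 counts in a library, more than the members, with at least 1126.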
